A study of Rattus norvegicus with 10 samples.

Results

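Passage 43 was compared with passage 42 in the control lines of a study of HSC-2, an established line of rat hepatic stellate cells. The arrays were chosen by their titles, as every array of an untransfected or scrambled control line, which gave 4 of the 10 arrays of the series. Each control line was sampled at both passages on 1 array per passage, so the passages were paired by line. The first control was HSC-2 that had not been transfected, and the second was HSC-2 transfected with a scrambled sequence, which the series design calls GFPscr. The untransfected arrays are titled replicate 2, and a replicate 1 was not analysed here. Both came from Wistar rats and grew in high-glucose DMEM with 10% serum and antibiotics. The other 6 arrays were 3 clones, S1, S4 and S5, transfected to overexpress rno-miR-146a and sampled at the same passages. They were used here only to estimate the spread of a passage change and to show where the control lines differed from them. Whether the scrambled line was 1 clone or a pool of transfected cells is not given in the sources used here. The labels do not state that the arrays of a line stand for independent cultures, so p-values here describe variation among these samples alone, part of which can be technical.

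Hepatic stellate cells are the pericytes of the liver. In healthy tissue they store retinoids, and after injury they divide, contract and deposit collagen-rich matrix. In culture, serial passage keeps such cells dividing, and the transcripts of the cell cycle, of sterol synthesis, of the interferon response and of the matrix all depend on growth state and culture conditions. A cell line carried from one passage to the next is the baseline against which any transfected derivative is read.

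The labelled cell type was checked against its markers. Of 13 stellate cell and fibroblast markers on the array, 8 had a log2 intensity above 6 on all 4 control arrays, among them the collagen genes Col1a1, Col1a2 and Col3a1, the filament genes Vim and Des, and the smooth muscle actin gene Acta2. Lrat, which esterifies retinol for storage, was at the floor of 20 intensity units on all 4 arrays, and Gfap, a glial filament protein of quiescent stellate cells, lay between 4.86 and 5.25 on the log2 scale, near the floor of 4.32. Summed hepatocyte markers lay between 339 and 408 intensity units over 6 genes and summed macrophage and leukocyte markers between 632 and 832 over 7 genes, against 87022 to 107538 for the stellate markers. In those lists Adgre1 and Cd163 were at the floor, and Ttr, at 7.23 to 7.69, and Cd14, at 8.82 to 9.31, were the members above log2 6 on all 4 arrays. Endothelial markers summed to 222 to 327 over 5 genes, with Tek above log2 6. Biliary markers summed to 1400 to 3298 over 4 genes, with Spp1 as the member above log2 6 and Epcam at the floor. Mesothelial and portal fibroblast markers summed to 3755 to 5997 over 5 genes, with Thy1, Msln and Eln above log2 6.

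Median intensity per control array was 97.7 to 102.6, and hybridisation controls, 18 probe sets added at fixed amounts, lay between 11.25 and 11.32 on the log2 scale. The 24 poly-A spike probe sets, whose RNA is added before labelling, were less even. Their mean was 10.67 at passage 42 and 10.07 at passage 43 in the untransfected line, against 8.43 and 9.11 in the scrambled line and 8.29 to 9.0 in the clones. The probe set for 5S ribosomal RNA was at 9.56 and 8.98 in the untransfected line and at 6.86 and 7.5 in the scrambled line. The poly-A and 5S values were thus lower at passage 43 in one line and higher in the other, and their part in the results below was not tested. The 3' minus 5' signal of actin was 0.89 and 0.85 in the untransfected line, against 0.47 to 0.67 on the other 8 arrays. That of Gapdh was 0.21 and 0.32, against 0.02 to 0.10, with the highest value on the untransfected array of passage 43, and its part in the results was not tested either. Bulk arrays cannot tell fewer cells of a kind from less RNA per cell.

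The first comparison asked which transcripts changed between the passages in both control lines, with the line as the block and the disagreement of the lines as the error. No probe set of 27225 passed (percent called 0), and the smallest limma adjusted p was 0.587. An unadjusted p under 0.05 was reached by 1992 probe sets, 7.32% of those tested, with 1 residual degree of freedom. The error was moderated by limma towards the spread over all probe sets, with 4.98 prior degrees of freedom. The changes of the 2 lines had the same sign in 13967 probe sets, 51.3%, and correlated over probe sets at r = 0.136, or 0.163 over the 18504 with a mean log2 intensity of at least 6. Probe sets are not independent replicates and share their 4 arrays, so these are descriptions. The median absolute difference between the changes of the control lines was 0.267 on the log2 scale, against 0.123 to 0.151 between pairs of clones.

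A change of at least 2-fold, which is 1 on the log2 scale, was counted in each line. In the untransfected line 177 probe sets were higher at passage 43 (0.650%) and 371 lower (1.36%), 548 in all (2.01%). In the scrambled line 200 were higher (0.735%) and 125 lower (0.459%), 325 in all (1.19%). The same direction in both lines was held by 29 probe sets (0.107%), 14 higher (0.0514%) and 15 lower (0.0551%), which stood for 25 named genes. The 14 were 7.91% of the untransfected and 7% of the scrambled list of higher probe sets, and the 15 were 4.04% and 12% of the lists of lower ones. A change in the untransfected line with less than 0.5 in the scrambled line was held by 388 probe sets (1.43%), the reverse pattern by 187 (0.687%), and 6 moved 2-fold in opposite directions (0.0220%). The remaining 228 lay in between (0.837%). With 1 array per line and passage these counts have no test.

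**Figure D1:**
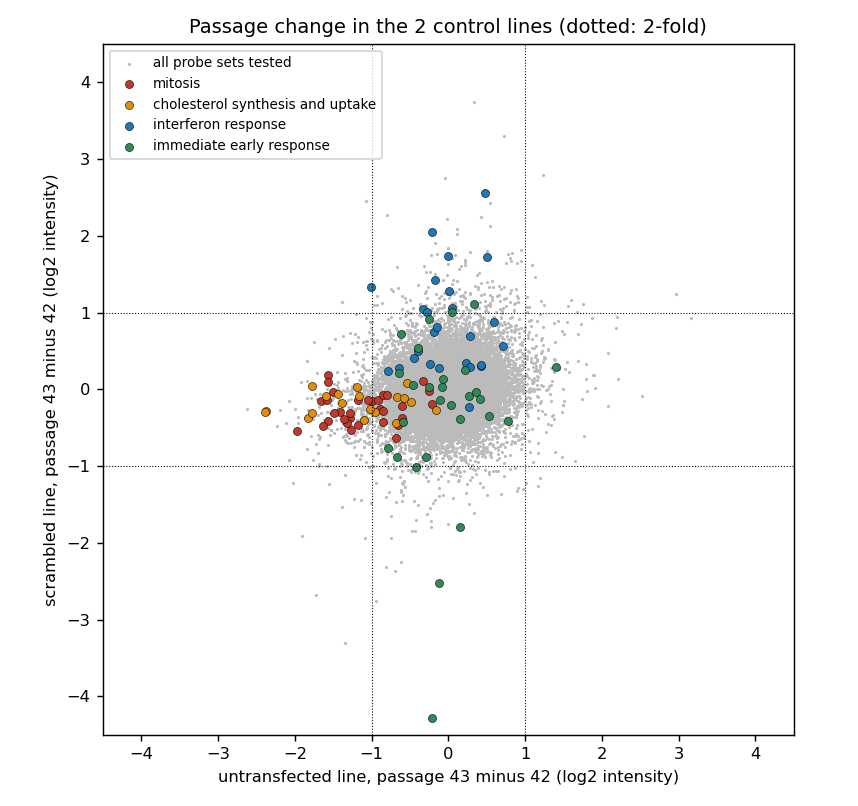
Each point is a probe set, with the log2 change from passage 42 to 43 in the untransfected line on the horizontal axis and in the scrambled line on the vertical axis; grey points are all 27225 probe sets tested and coloured points are 1 probe set per gene of 4 gene lists. Mitosis and cholesterol genes spread to the left, interferon genes upward, and few points lie in the upper right or lower left corner beyond the dotted 2-fold lines.

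A second model used all 10 arrays to test each line by itself, with 1 coefficient per line and separate passage terms for the untransfected line, the scrambled line and the clones. Its error is the spread of the passage change among the 3 clones, with 2 residual degrees of freedom. By limma this error is moderated towards the spread over all probe sets, with 1.75 prior degrees of freedom. The model assumes that the control lines vary as the clones do. Over probe sets the SD of the change was 0.377 in the untransfected and 0.323 in the scrambled line, against 0.255 to 0.268 in the clones, so this spread may be too small for the control lines and the p-values of single lines too low. In the untransfected line 1725 probe sets changed at a limma adjusted p under 0.05 (6.34%), of which 678 rose (2.49%) and 1047 fell (3.85%). An unadjusted p under 0.05 was reached by 8461 (31.1%). Without any 1 of the clones S1, S4 or S5 this count was 0, so each statement below that a gene rose or fell in the untransfected line rests on all 3 clones. In the scrambled line 0 passed (percent called 0), with a smallest limma adjusted p of 0.0546 and 6516 probe sets at an unadjusted p under 0.05 (23.9%). The difference of the changes between the lines was tested in the same model and also passed for 0 probe sets (percent called 0), with a smallest limma adjusted p of 0.0823 and 7329 at an unadjusted p under 0.05 (26.9%). For no gene, therefore, was a change in one line shown to differ from that in the other.

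Among the genes with the same direction in both lines, Anxa3, a calcium-dependent phospholipid-binding annexin, had the closest match. Its log2 intensity was 8.94 at passage 42 and 7.03 at passage 43 in the untransfected line, and 9.64 and 7.73 in the scrambled line. Both passage 43 arrays lay below both passage 42 arrays, and the changes were -1.91 and -1.92, a mean of -1.91 (SE 0.17, 2 lines, limma adjusted p = 0.587). In the untransfected line it fell (limma adjusted p = 0.0404). In the clones the change was 0.17 to 0.21, and the control lines differed from the clones by -2.11 (SE 0.12, limma adjusted p = 0.00859). The 3 other probe sets annotated to Anxa3 were dimmer, with changes between -0.40 and 0.39 in the untransfected line and between -0.52 and -0.36 in the scrambled line, so the large change is that of 1 probe set.

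Fgf9, a secreted fibroblast growth factor, and Aspn, the small leucine-rich proteoglycan asporin that binds collagen and TGF-beta, had the largest mean changes among the higher genes. Fgf9 was at 8.39 and 11.35 in the untransfected line and at 6.58 and 7.82 in the scrambled line. Its changes were 2.96 and 1.24, and it rose in the untransfected line (SE 0.08, limma adjusted p = 0.0404). The clone arrays, which give the error, were at or near the floor for this probe set, at 4.32 to 5.31. A second Fgf9 probe set was at 7.33 and 9.85 in the untransfected line and at 7.01 and 6.92 in the scrambled line, so the probe sets match in the untransfected line and not in the scrambled line. Aspn was at 8.73 and 9.96 in the untransfected line and at 4.83 and 7.63 in the scrambled line. Its changes were 1.23 and 2.80, and its second probe set gave 0.73 and 3.31. Both Aspn probe sets passed in the untransfected line (limma adjusted p = 0.0404 and 0.0416). In the scrambled line they had the smallest adjusted p of all, 0.0546 by limma. The scrambled array of passage 42 was near the floor for Aspn. All clone arrays were at the floor, so no change could be measured there. The error of this test is the moderated spread among the clones. For Aspn that spread was not measured, and the error comes from the moderation over all probe sets. These p-values therefore do not show that Aspn changed.

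Mylk, the kinase that phosphorylates myosin light chain, was at 8.46 and 9.68 in the untransfected line and at 6.27 and 7.42 in the scrambled line. Its changes were 1.21 and 1.15, and it rose in the untransfected line (limma adjusted p = 0.0433). It was the one member of 24 measured contractile and serum response factor genes that was at least 2-fold higher in either line. Over all genes this share was 0.637% in the untransfected and 0.841% in the scrambled line. The medians of that list were 0.09 and -0.18. Rem2, a small GTPase that inhibits calcium channels, was at 6.56 and 7.80 in the untransfected line and at 6.57 and 7.67 in the scrambled line. Sspn, sarcospan of the dystrophin complex, was at 8.99 and 10.02, and at 8.23 and 9.44. Both rose in the untransfected line (limma adjusted p = 0.0416 for each), as did Gas7, a growth arrest gene whose product binds actin, at 1.55 (limma adjusted p = 0.0447) and Mpzl2, an adhesion molecule of the immunoglobulin family, at 1.76 (limma adjusted p = 0.043). Their changes in the scrambled line were 1.10, 1.21, 1.08 and 1.12, in that order. Other Sspn probe sets were at 0.57 and 0.64, 0.77 and 0.70, 0.50 and 0.49, and -0.05 and 0.26. A second Rem2 probe set was at 0.66 and 0.36, and a second Mylk probe set, near the floor, at 0.21 and 0.13. For Sspn, Rem2 and Mylk the 2-fold change in both lines is thus that of a single probe set.

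Lnx1, an E3 ubiquitin ligase that targets Numb, was represented by 2 of the 14 higher probe sets, with changes of 1.13 and 1.47 in the brighter one. Rerg, a Ras-like growth inhibitor regulated by oestrogen, had 1.59 and 1.17, and Ccnt2, a cyclin of the transcription elongation factor P-TEFb, had 1.03 and 1.07. Of the 3 other Ccnt2 probe sets, the brightest was at 0.00 and 0.46, and the others at 0.09 and 0.15 and at 0.25 and -0.24, so the change of Ccnt2 is that of 1 probe set. These 3 probe sets did not pass in the untransfected line, where their limma adjusted p was 0.0609, 0.163 and 0.0895, while the dimmer Lnx1 probe set, at 1.05, rose there (limma adjusted p = 0.0416). Its change of 1.08 in the scrambled line is a lower bound, since passage 42 was at the floor. The clone arrays, which give the error, were at or near the floor for it, at 4.32 to 4.79. Rerg was also higher in every clone, by 0.64, 2.00 and 0.70.

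The lower genes included Tfrc, the transferrin receptor that brings iron into dividing cells. Its log2 intensity was 8.38 and 6.36 in the untransfected line and 9.75 and 8.52 in the scrambled line, with the 2 passage 43 arrays below the passage 42 array of their own line. The changes were -2.02 and -1.22, those of a second probe set -2.07 and -0.92, and those of the clones -0.93, -0.69 and -0.93. Tfrc fell in the untransfected line (SE 0.12, limma adjusted p = 0.0404). Vsnl1, a neuronal calcium sensor, was at 7.21 and 5.86 in the untransfected line and at 8.05 and 4.75 in the scrambled line, where passage 43 was near the floor. It fell in the untransfected line (limma adjusted p = 0.0416) and was at -3.31 in the scrambled line, while the clones were at 0.19 to 0.36.

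Rassf4, a Ras-association tumour suppressor family gene, was the lower gene that the clones shared most. It was at 7.15 and 5.77 in the untransfected line and at 9.14 and 7.61 in the scrambled line, and its changes in the clones were -1.87, -1.54 and -2.22, for which the clone test passed (limma adjusted p = 0.0127). In the untransfected line it did not pass (limma adjusted p = 0.0635). Klf2, a Krüppel-like factor, was at -1.01 and -1.07, and at -0.78 and -0.76 in a brighter probe set, without passing in either line. The 3 other Klf2 probe sets were at 0.18 and -0.48, 0.13 and -0.21, and -0.17 and 0.08. Flrt2, a fibronectin leucine-rich transmembrane protein, fell in the untransfected line by 1.03 (limma adjusted p = 0.0416) and was at -1.01 in the scrambled line. Rgs17, which shuts off G protein signals, fell in the untransfected line by 1.34 (limma adjusted p = 0.045) and was at -1.12 in the scrambled line. The clone arrays, which give the error, were at or near the floor there, at 4.32 to 4.92. The brightest Rgs17 probe set was at -0.58 and -0.41, and the others were lower in both lines by less than 2-fold. Prl8a9, of the placental prolactin family, Mbnl3, a muscleblind splicing factor, and Hapln1, a link protein of hyaluronan matrix, were at -1.73, -1.55 and -1.23 in the untransfected line and at -2.68, -1.23 and -1.43 in the scrambled line, and did not pass in either. Id2, an inhibitor of basic helix-loop-helix factors that responds to bone morphogenetic proteins, counted here through its brighter probe set, at -1.0 and -1.49. Its relative Id1 was at -0.84 and -0.94.

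In the clones, all 3 changes had the control lines' sign for 8 of the 14 higher probe sets and for 8 of the 15 lower ones, and the opposite sign for 2 and 3. Over all probe sets tested, 22.8% were higher and 24% lower in all 3 clones. The clone test passed for 0 of the 14 and for 3 of the 15, 2 of them probe sets of Rassf4 and the third that of Klhl41, a Kelch protein of muscle, which was at -1.14 in the untransfected line and -1.44 in the scrambled line. Over all probe sets the clone test passed for 450 (1.65%), of which 281 rose (1.03%) and 169 fell (0.621%).

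**Figure D2:**
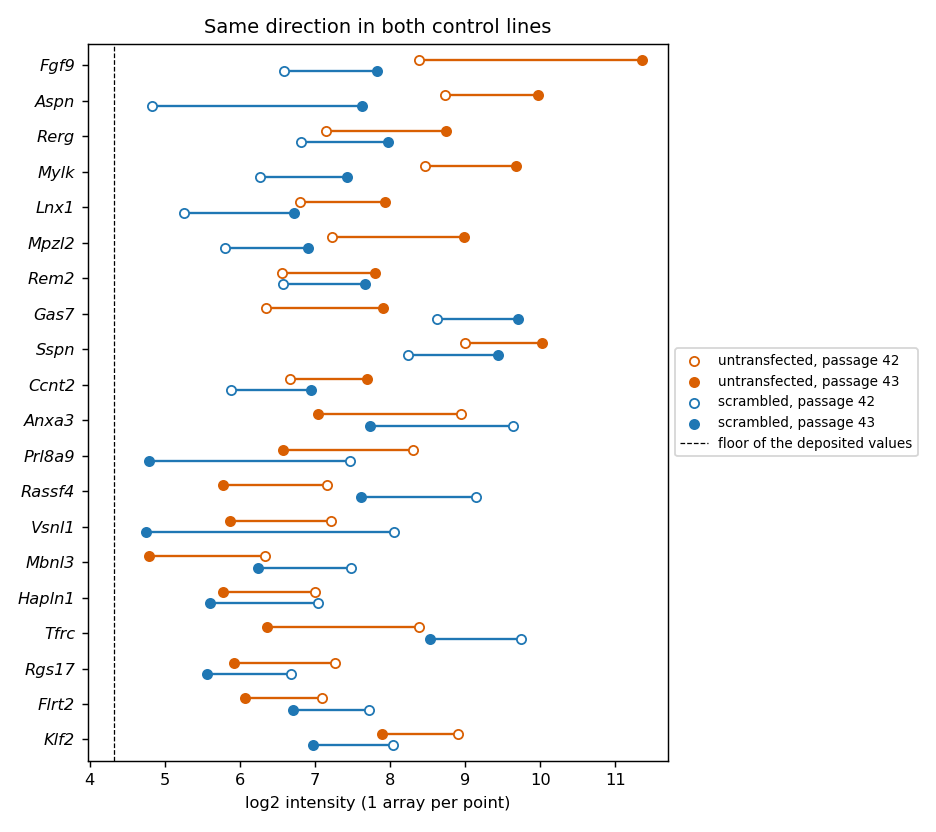
Log2 intensity of the 20 named genes with the same direction in both control lines, 10 higher and 10 lower; open points are passage 42, filled points passage 43, orange the untransfected and blue the scrambled line, with 1 array per point and a dashed line at the floor. The lengths of the paired lines are alike for Anxa3, Mylk, Flrt2 and Klf2 and differ most for Aspn, Vsnl1 and Fgf9.

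In gene lists each gene was represented by its probe set of highest mean. The mitosis list had a median change of -1.18 in the untransfected line and -0.27 in the scrambled line, against medians of 0.00 and -0.02 over 13191 genes. Of 32 measured members, 23 fell and 0 rose in the untransfected line (limma; 4.89% of all genes fell), and 29 were lower in both lines (28.7% of all genes). In the scrambled line 0 members passed or were 2-fold lower. Ccna2, the cyclin of S phase and mitotic entry, was at 10.40 and 8.43 in the untransfected line and at 10.82 and 10.28 in the scrambled line. The passage 43 array of the untransfected line was the lowest, and the other 3 arrays lay within 0.54 of each other. Ccna2 fell by 1.97 in the untransfected line (SE 0.11, limma adjusted p = 0.0404). Ccnb1, the cyclin that drives entry into mitosis, fell too, as did Bub1b, a kinase of the spindle checkpoint, and Mad2l1, its partner there. Their changes in the untransfected line were -1.56, -1.66 and -1.63, while those in the scrambled line were -0.41, -0.15 and -0.48. The clones had medians of -0.72, -0.55 and -0.73 for this list, between those of the control lines.

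The kinase genes Aurka, Aurkb and Plk1, the motor gene Kif11 and the proliferation marker Mki67 fell too. Mki67 was at 10.82 and 9.25 in the untransfected line and at 10.85 and 10.94 in the scrambled line, so the lines matched at passage 42 and separated at passage 43. Cdk1, the kinase that Ccna2 and Ccnb1 activate, was at 11.20 and 10.98 and at 11.13 and 10.95, with changes of -0.22 and -0.19, and did not pass. Of the other members that did not pass, Cenpa, Nusap1, Prc1, Ube2c, Birc5, Hmmr, Dlgap5 and Cdca8 were also lower in the untransfected line, from -0.25 for Cenpa to -0.85 for Birc5.

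Transcripts of mitosis share promoter elements, the CHR element bound by the DREAM complex and the CCAAT box bound by NF-Y. Of 27 members matched to a RefSeq promoter on GRCr8, 12 held TTTGAA within 250 bases before the start on either strand (44.4%), against 16% of 27457 promoters, and 21 held CCAAT on either strand (77.8%), against 34.3%. Such a match is a description of the letters and not a binding site, and the measured changes were not used in the search. The promoters of Mki67 and of Ect2, an exchange factor for cytokinesis that fell by 1.36 in the untransfected line and was at -0.39 in the scrambled line, are shown as the 2 members with the CHR letters and the largest falls in that line, with TTTGAA in capitals.
Mki67, chr1:199952594-199952843, minus strand: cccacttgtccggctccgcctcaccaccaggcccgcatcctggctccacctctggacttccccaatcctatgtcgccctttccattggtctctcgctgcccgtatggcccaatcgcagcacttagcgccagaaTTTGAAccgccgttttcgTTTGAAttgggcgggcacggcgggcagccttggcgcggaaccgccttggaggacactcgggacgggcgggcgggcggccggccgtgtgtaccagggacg
Ect2, chr2:111966627-111966876, minus strand: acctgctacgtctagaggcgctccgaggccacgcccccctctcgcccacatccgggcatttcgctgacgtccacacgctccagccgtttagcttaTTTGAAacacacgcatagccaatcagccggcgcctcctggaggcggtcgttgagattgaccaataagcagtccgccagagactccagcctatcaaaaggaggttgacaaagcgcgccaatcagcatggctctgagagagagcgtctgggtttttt

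DNA replication genes followed the same order of lines. The list had medians of -0.99 and -0.20, 22 of 30 members fell and 0 rose in the untransfected line (4.89% and 2.77% of all genes), and 24 were lower in both lines (28.7% of all genes). Tk1, thymidine kinase of the salvage pathway, was at 9.93 and 8.09 in the untransfected line and at 10.54 and 9.76 in the scrambled line. It fell in the untransfected line by 1.84 (SE 0.09, limma adjusted p = 0.0404), and in the scrambled line was at -0.78. A second Tk1 probe set was at -1.72 and -0.72. A dimmer Tk1 probe set was at -0.57 and -0.77, without that order, and did not pass in the untransfected line (limma adjusted p = 0.154). Mcm7, a subunit of the replicative helicase, Rrm1, the large subunit of ribonucleotide reductase, and Gmnn, the licensing inhibitor geminin, fell as well. Their changes were -1.72, -1.70 and -2.00, with -0.12, -0.34 and -0.25 in the scrambled line. Orc1, of the origin recognition complex, was at 6.02 and at the floor of 4.32 in the untransfected line, so its change of -1.70 is a bound, and it was at 6.71 and 5.89 in the scrambled line. Lmnb1, a nuclear lamin, and Rbl1, a pocket protein of the retinoblastoma family, fell in the untransfected line, at -1.34 and -1.31. They were at -0.16 and -0.03 in the scrambled line. The dimmer Lmnb1 probe sets were at -0.86 and -0.70 and at 0.10 and -0.29. The fall in the untransfected line alone is thus that of the brightest Lmnb1 probe set. Lmnb1 and Rbl1 were the 2 members that fell of 18 on the list of replicative senescence and cell cycle inhibitors (4.89% of all genes fell). The medians of that list were -0.04 and -0.02.

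Cholesterol synthesis and uptake showed the same contrast of the control lines, with the clones near 0. The list medians were -1.17 in the untransfected and -0.17 in the scrambled line, and 0.06, -0.16 and -0.01 in the clones. Of 19 members 14 fell and 0 rose in the untransfected line (4.89% and 2.77% of all genes), 16 were lower in both lines (28.7% of all genes), and 0 passed in the scrambled line. Acat2, the cytosolic thiolase at the head of the pathway, was at 10.50 and 8.12 in the untransfected line and at 11.44 and 11.14 in the scrambled line. Idi1, which isomerises isopentenyl diphosphate, was at 11.08 and 8.70 and at 11.78 and 11.49. For both genes the passage 43 array of the untransfected line was more than 1 log2 unit below each of the other 3. Acat2 fell by 2.38 (SE 0.07, limma adjusted p = 0.0404) and the change of Idi1 was -2.37 (SE 0.23, limma adjusted p = 0.0416), with -0.29 for each in the scrambled line.

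Further along the pathway, Sqle, the squalene epoxidase, fell, as did Fdps, which makes farnesyl diphosphate, Cyp51, which demethylates lanosterol, and Dhcr7, which makes the last step to cholesterol. Their changes were -1.83, -1.78, -1.78 and -1.43 in the untransfected line. Insig1, which retains SREBP in the endoplasmic reticulum, fell by 1.02. Srebf2, which encodes the SREBP of the cholesterol pathway, was at -0.16 and -0.27 and did not pass. Srebf1, of the fatty acid pathway, rose by 1.12 in the untransfected line (SE 0.09, limma adjusted p = 0.0416) and was at 0.11 in the scrambled line. Its 5 fellow members that changed all fell, namely Elovl6, which lengthens fatty acids, the desaturase gene Scd, the synthase gene Fasn, Acly, which makes cytosolic acetyl-CoA, and Acaca, which carboxylates it. Their changes were -1.67, -1.15, -1.08, -0.86 and -0.76. The other 8 of the 14 fatty acid genes did not pass. Over all genes 4.89% fell and 2.77% rose in the untransfected line.

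Promoters of 15 cholesterol genes were matched. The sterol element TCACNCCAC was found in 0 of them within 250 bases, against 0.976% of all promoters, which says only that these letters are not in those windows. CCAAT was found in 12 (80%), against 34.3% of all promoters. Idi1 is shown because it had the largest fall among the members with this box, with CCAAT or its complement in capitals.
Idi1, chr17:66547525-66547774, minus strand: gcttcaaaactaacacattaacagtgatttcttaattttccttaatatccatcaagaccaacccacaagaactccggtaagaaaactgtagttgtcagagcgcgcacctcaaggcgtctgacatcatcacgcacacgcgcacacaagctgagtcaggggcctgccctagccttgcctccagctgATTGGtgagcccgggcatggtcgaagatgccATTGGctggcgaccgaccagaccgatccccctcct

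**Figure D3:**
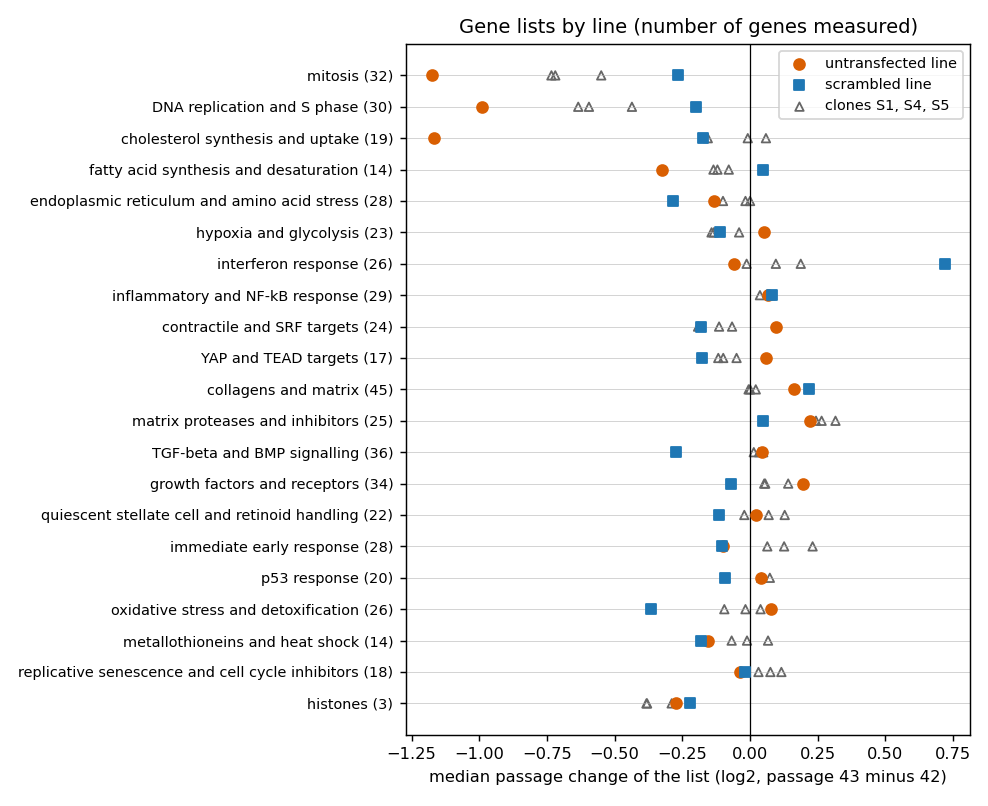
Median log2 change from passage 42 to 43 of 21 gene lists, with the number of genes measured; circles are the untransfected line, squares the scrambled line and open triangles the 3 clones, each from 1 array per passage. The mitosis, DNA replication and cholesterol medians of the untransfected line lie between -1.18 and -0.99, and the interferon median of the scrambled line is at 0.72, while most other medians lie near 0.

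The interferon list went with the scrambled line. Its median was 0.72 in the scrambled line and -0.06 in the untransfected line, and -0.01, 0.19 and 0.10 in the clones. Of 26 measured members 10 were at least 2-fold higher in the scrambled line (0.841% of all genes), 25 were higher by any amount, and 0 passed the test, as did 0 genes in all. In the untransfected line 1 rose, Gbp2, a guanylate-binding protein, by 0.71, and 1 fell, Mx2, an antiviral dynamin-like GTPase, at -0.65. Over all genes 2.77% rose and 4.89% fell there. An unadjusted p under 0.05 for the difference between the lines was reached by 18 of the 26 members, against 3839 of 13191 genes. Other lists had many such members too, with 25 of 32 for mitosis and 24 of 30 for DNA replication. The cholesterol list had 15 of 19, and the endoplasmic reticulum and amino acid stress list 20 of 28.

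Usp18, the protease that removes Isg15 from its targets and dampens the interferon receptor, was at 6.05 and 6.52 in the untransfected line and at 6.53 and 9.09 in the scrambled line. Irf7, the transcription factor that amplifies type I interferon, was at 7.58 and 7.37 and at 7.95 and 10.00. For both genes the passage 43 array of the scrambled line lay more than 2 log2 units above each of the other 3. The changes in the scrambled line were 2.56 (SE 0.27) for Usp18 and 2.05 (SE 0.13) for Irf7, with a limma adjusted p of 0.0923 for each. Isg15, a ubiquitin-like modifier, was at 7.35 and 8.77 in the scrambled line and at 6.84 and 6.66 in the untransfected line. Ifit3, which binds viral RNA in complex with its relatives, was at the floor on both untransfected arrays and at 4.84 and 6.57 in the scrambled line.

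Ifi27, a mitochondrial interferon-induced protein, was at 11.02 and 12.74 in the scrambled line and at 11.65 and 12.15 in the untransfected line, and Irf9, the DNA-binding subunit of the ISGF3 complex, was at 8.06 and 9.11, and at 7.98 and 7.65. Bst2, Oas1a and Rsad2, all antiviral effectors, had changes of 1.06, 1.28 and 1.01 in the scrambled line. Members of antigen processing had smaller values that were alike in both lines, at 0.43 and 0.32 for the peptide transporter gene Tap1, 0.43 and 0.31 for the immunoproteasome gene Psmb8, and 0.28 and 0.30 for Tap2. Trim34 and Irgm2 are interferon-inducible but not on the list. They were at 1.79 and 1.75 in the scrambled line and at 0.28 and 0.09 in the untransfected line. Both were named for a change in the scrambled line alone, so this pattern was set by the choice. Trim34 was also higher in the clones, by 0.93, 0.88 and 0.83. Ifitm1, likewise inducible and not on the list, was at 2.08 in the untransfected line and 0.47 in the scrambled line.

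The interferon-stimulated response element binds ISGF3 and other interferon regulatory factors. Its core letters GAAANNGAA, on either strand, were found within 250 bases before the start of 14 of 21 matched interferon genes (66.7%), against 7.99% of all 27457 promoters. Irf7 and Ifit3 are shown as the 2 members with these letters and the largest changes in the scrambled line, with the matches in capitals on the strand printed.
Irf7, chr1:205800024-205800273, minus strand: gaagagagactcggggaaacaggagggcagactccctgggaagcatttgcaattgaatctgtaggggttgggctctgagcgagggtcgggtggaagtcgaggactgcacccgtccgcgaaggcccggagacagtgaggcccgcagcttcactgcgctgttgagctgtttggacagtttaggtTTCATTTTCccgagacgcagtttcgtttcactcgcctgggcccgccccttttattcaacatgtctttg
Ifit3, chr1:241527076-241527325, plus strand: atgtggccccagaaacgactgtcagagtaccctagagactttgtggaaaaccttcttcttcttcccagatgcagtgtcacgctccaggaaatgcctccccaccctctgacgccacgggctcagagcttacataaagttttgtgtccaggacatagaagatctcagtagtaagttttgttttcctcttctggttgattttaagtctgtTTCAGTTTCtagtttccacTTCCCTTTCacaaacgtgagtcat

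Of the 388 probe sets that were 2-fold different in the untransfected line with little movement in the scrambled line, 116 were higher (0.426%) and 272 lower (0.999%). Gadd45a, a DNA damage and stress response gene on both the p53 and the YAP list, was at 10.90 and 12.79 in the untransfected line and at 11.55 and 11.74 in the scrambled line. It rose by 1.89 (SE 0.13, limma adjusted p = 0.0404). Ifitm1, an interferon-inducible membrane protein, rose by 2.08, Nrip2, a corepressor of nuclear receptors, by 1.81, Septin4, a septin GTPase, by 1.79, and Nr1d1, the circadian repressor Rev-erb alpha, by 1.74, with 0.47, -0.02, 0.33 and -0.13 in the scrambled line. Pln, phospholamban, which restrains the calcium pump of the sarcoplasmic reticulum, rose by 1.68 in the untransfected line, and the clones were at 1.87, 2.03 and 1.78 and rose as well (limma adjusted p = 0.0253). Its second probe set was at 2.20 in the untransfected and 0.94 in the scrambled line. Gpm6b, a proteolipid of the myelin family, was at 1.5 and did not pass (limma adjusted p = 0.0523). For Ifitm1 the clone arrays, which give the error, were at or near the floor, at 4.32 to 4.79.

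Of 28 genes of the endoplasmic reticulum and amino acid stress list, 7 fell and 4 rose in the untransfected line. Over all genes 4.89% fell and 2.77% rose. The 4 were Ddit3, the stress transcription factor CHOP, which went from 10.17 to 11.94 (SE 0.08, limma adjusted p = 0.0404), Nupr1, a chromatin stress protein, at 1.08, Ppp1r15a, which restores translation, at 1.04, and Trib3, a pseudokinase, at 0.66. In the scrambled line these 4 were at -0.61, -0.52, -0.19 and -0.55. Xbp1, the splicing-activated factor of the unfolded protein response, Sdf2l1 and Pdia4, both of protein folding, and Psat1 and Gars1, of serine synthesis and tRNA charging, were among the 7 that fell, as was Slc7a11, the cystine transporter, which was at -0.78 and -0.75 in the lines and near -0.72 on average in the clones. Gdf15, a stress cytokine of the p53 list, rose by 1.48 in the untransfected line and was at -0.29 in the scrambled line.

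Among the 272 lower probe sets, Exo1 had the largest change of those named. Exo1, an exonuclease of mismatch repair, was at 8.54 and 5.91 in the untransfected line and at 8.68 and 8.42 in the scrambled line. It fell by 2.62 (SE 0.12, limma adjusted p = 0.0404). Shcbp1, which acts in cytokinesis, fell too, with Plk4, the kinase of centriole duplication, Rad54l, of homologous recombination, and Ska3, of the kinetochore. Their changes were -2.24, -2.19, -2.07 and -1.96 in the untransfected line. Their values in the scrambled line were -0.47, -0.27, -0.15 and -0.44, and every clone was lower for these 5 genes, from -0.45 for Rad54l in S1 to -1.07 for Ska3 in S5.

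**Figure D4:**
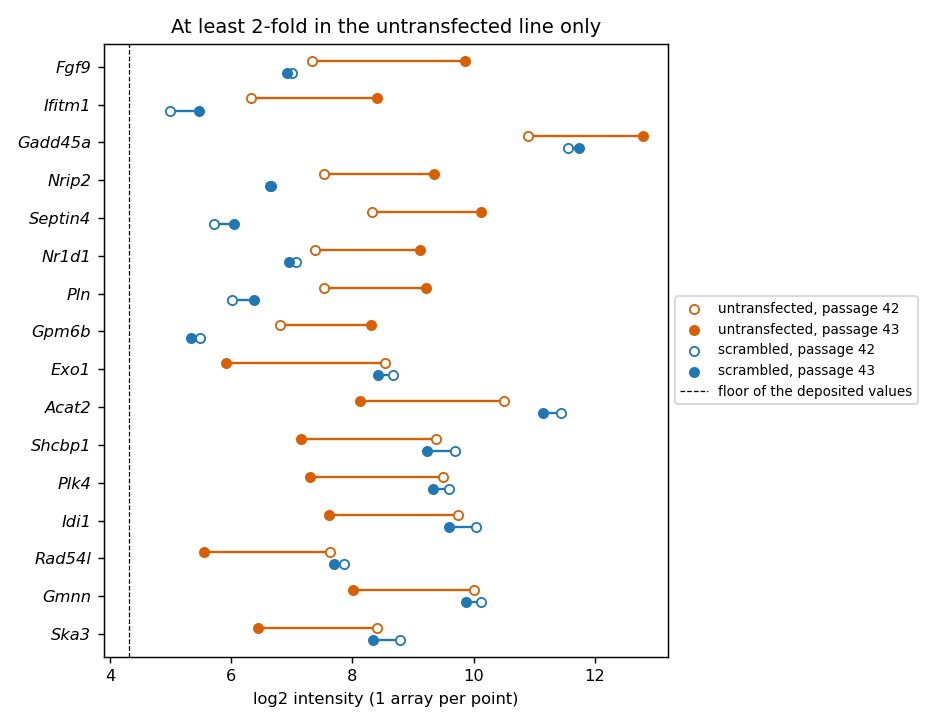
Log2 intensity on the 4 control arrays of the 16 named genes that were at least 2-fold different in the untransfected line (orange) and less than 0.5 on the log2 scale in the scrambled line (blue); open points are passage 42 and filled points passage 43. Exo1, Plk4 and Gmnn have similar levels in the lines at passage 42 and separate at passage 43, whereas Acat2, at 10.50 and 11.44, differs at passage 42 already.

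The 187 probe sets that were 2-fold different in the scrambled line with little movement in the untransfected line were 120 higher (0.441%) and 67 lower (0.246%). Mgp, the matrix Gla protein that inhibits calcification, was at 14.08 and 14.42 in the untransfected line and at 8.49 and 12.24 in the scrambled line. The scrambled array of passage 42 was the low one, and both untransfected arrays lay above both scrambled arrays. The change in the scrambled line was 3.75 (SE 0.22, limma adjusted p = 0.0923). Dcn, the proteoglycan decorin that binds collagen, was at 5.81 and 8.97 in the untransfected line and at 5.0 and 5.92 in the scrambled line. It rose by 3.17 in the untransfected line (SE 0.19, limma adjusted p = 0.0404), was at 0.92 in the scrambled line, and the clones had a mean change of 2.04.

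Lum, the proteoglycan lumican, was higher in both lines, at 0.82 and 1.67, and rose in the clones (limma adjusted p = 0.0331), where the changes were 1.44 to 2.54. Over the 45 measured collagens and matrix genes the medians were 0.16 and 0.22, and 28 were higher in both lines (24.8% of all genes). In the untransfected line 3 rose by limma (2.77% of all genes), Dcn, Aspn and Col18a1, a basement membrane collagen. For Aspn the clones, which give the error, were at the floor. Main fibrillar collagens had small changes, at 0.11 and -0.14 for Col1a1, 0.02 and 0.02 for Col1a2 and 0.15 and 0.09 for Col3a1. Loxl1, an elastin cross-linking oxidase, was at 1.12 in the scrambled line and -0.12 in the untransfected line, and Tnc, the glycoprotein tenascin C, at -1.45 and -0.60. Mmp2, gelatinase A, was at 0.70 and 0.99 and passed in neither line.

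In the scrambled line, Pdgfra, a receptor of platelet-derived growth factor on fibroblasts, was at 8.20 and 9.70, while the untransfected line was at 8.58 and 8.42. Igfbp5, an insulin-like growth factor binding protein, was at 6.57 and 8.70 against 6.59 and 7.13. It rose in the clones, by 2.02, 3.84 and 2.92 (limma adjusted p = 0.0302). Other Igfbp5 probe sets were at 1.25, 0.54, 0.29 and 0.03 in the scrambled line. Of these, the probe set at 1.25 rose in the clones (limma adjusted p = 0.0474), and the others did not pass there. Nrep, a neuronal regeneration protein of myofibroblasts, was at 1.80, Tnnt2, cardiac troponin T, at 1.76 and Srpx2, a secreted sushi-repeat protein, at 1.75 in the scrambled line. The untransfected line was at 0.50, -0.15 and -0.23 for these 3.

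Among the 67 lower probe sets, Fos had the largest change of those named. Fos, a subunit of the AP-1 transcription factor induced within minutes by serum, was at 10.48 and 6.2 in the scrambled line and at 8.58 and 8.36 in the untransfected line. The scrambled line thus held both the highest and the lowest of the 4 values. Its change there was -4.28 with an SE of 1.04, since the clones spread from -1.06 to 1.69, and did not pass (limma adjusted p = 0.135). A second Fos probe set, dimmer, was at -0.18. Fosb, of the same family, was at 7.77 and 5.24 in the scrambled line and at 5.18 and 5.06 in the untransfected line.

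Dusp1, a phosphatase of mitogen-activated kinases, was at -1.79 in the scrambled line and 0.15 in the untransfected line. A second Dusp1 probe set, dimmer, was at -0.80 and 0.46, in that order. Of 28 immediate early genes, 4 were at least 2-fold lower in the scrambled line, Fos, Fosb, Dusp1 and Klf4, a Krüppel-like factor (0.546% of all genes). Egr2, a zinc finger factor, and Dusp5, a phosphatase of ERK, were 2-fold higher (0.841% of all genes). The list medians were -0.10 in each line. Cxcl1, a neutrophil chemokine, was at 10.23 and 8.52 in the scrambled line and at 8.12 and 7.89 in the untransfected line. Prrx2, a paired homeobox factor of mesenchyme, was at -1.85, Itga6, the laminin receptor subunit alpha 6, at -1.62, Phlda1, a pleckstrin homology protein, at -1.54 and Zdhhc2, a palmitoyltransferase, at -1.5 in the scrambled line, against -0.44, -0.27, -0.24 and -0.39 in the untransfected line. The clones went the other way for Prrx2, at 1.32, 1.70 and 1.33, and passed the clone test (limma adjusted p = 0.0465). A second, dimmer Prrx2 probe set was at -0.20 in the scrambled and -0.26 in the untransfected line, with a clone mean of 0.07. Itga6 ended at 4.78 in the scrambled line, near the floor. Its other probe sets were at -0.65, -0.15 and -0.09 in the scrambled line and at 0.45, -0.10 and -0.12 in the untransfected line. The dimmer Id2 probe set counted here, at -1.80 and -0.23, and the brighter one among the genes of both lines.

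**Figure D5:**
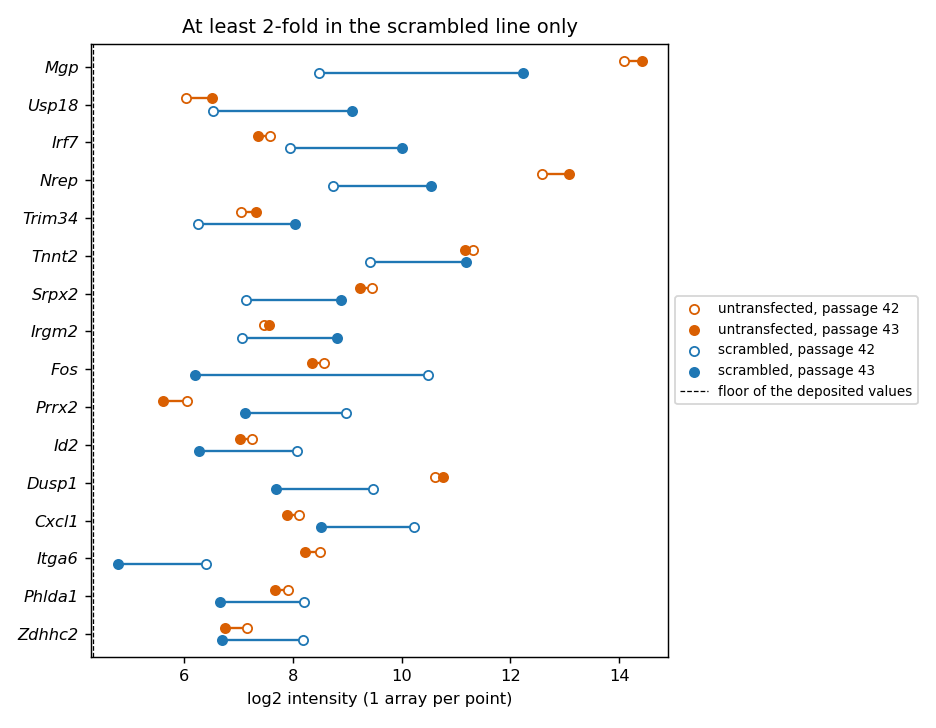
Log2 intensity on the 4 control arrays of the 16 named genes that were at least 2-fold different in the scrambled line (blue) and less than 0.5 on the log2 scale in the untransfected line (orange); open points are passage 42 and filled points passage 43. Mgp, with 8.49 and 12.24, and Fos, with 10.48 and 6.2, have the longest lines.

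Of the 6 probe sets that moved 2-fold in opposite directions, 5 had a gene name. Cd44, the hyaluronan receptor, was at 8.76 and 9.96 in the untransfected line and at 9.14 and 7.99 in the scrambled line, and a second probe set gave 0.62 and -1.06. It rose in the untransfected line (SE 0.12, limma adjusted p = 0.0417). Wnt4, a secreted Wnt ligand, was at 1.17 and -1.26, and Ereg, the epidermal growth factor receptor ligand epiregulin, at 1.01 and -1.22, of which Ereg rose in the untransfected line (limma adjusted p = 0.0496). Ccl2, the monocyte chemokine, was at -1.38 and 1.14, and Ifi44, an interferon-induced gene, at -1.0 and 1.33. The limma adjusted p of the difference between the lines was 0.0823 for each of the 5.

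Members of other lists are given as single values. Grem1, an antagonist of bone morphogenetic proteins, rose by 1.3 in the untransfected line and was at -0.46 in the scrambled line, while Inhbb, an activin subunit, rose by 0.73 and was at -1.12. Mt2A, a metallothionein that buffers zinc, rose by 1.11 and was at -0.94. Fgf7, a growth factor for epithelial cells, rose by 1.38 and was at -0.39. Lpl, lipoprotein lipase, rose by 1.26 and was at 0.40, with the clone arrays near the floor, at 4.48 to 4.73. Lhx2, a homeobox factor of quiescent stellate cells, fell by 1.55 in the untransfected line and was at -0.30 in the scrambled line. Eno1, the glycolytic enolase, fell by 1.13 and was at -0.09. Over the inflammatory list of 29 genes, 1 rose in the untransfected line, the adhesion molecule gene Icam1, by 0.98, and 0 fell, close to the 2.77% of all genes that rose and below the 4.89% that fell.

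The last comparison asked where the passage change of the control lines differed from that of the clones, in a model with 1 passage term for each class. It called 5 probe sets of 27225 (percent called 0.0184), 2 higher (0.00735%) and 3 lower (0.0110%) in the control lines, with 2260 at an unadjusted p under 0.05 (8.30%), and 0 when any 1 of the 5 lines was left out. Besides Anxa3, the probe sets were 2 of Gzmb, the serine protease granzyme B, 1 of Nr4a1, an orphan nuclear receptor of the immediate early class, and 1 of Vgf, a neuroendocrine secretory protein. Gzmb was at 12.00 and 12.08 in the untransfected line and at 8.47 and 8.49 in the scrambled line, with changes of 0.08 and 0.03, whereas the clones were at -2.16, -2.25 and -2.24. Nr4a1 was at 7.82 and 8.04 and at 7.24 and 7.5 in the control lines, and the clones were higher by 1.76 to 1.94. Vgf, which lay near the floor in the control lines, was at -0.35 and -0.47, against 1.32 to 1.5 in the clones.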

How the data were processed

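The arrays were Affymetrix rat arrays hybridised with biotin-labelled cDNA made from total RNA, per the labels. The deposited values are linear intensities, for which the submitters' processing notes name RMA. No version is given in the sources used here, nor how RMA values came to a linear scale. None of the 4 control columns was below 20, and 14.6% of their values were exactly 20, a floor below which there is no order. All values were analysed as log2. The array held 31099 probe sets, and 27225 were tested after removal of 57 array controls and of 3817 that stayed at 20 in every control column. Of these, 19042 had 1 symbol in the platform annotation (13191 genes), 397 several and 7786 none; 18983 were matched to the GRCr8 gene table and 0 symbols differed. A probe set with several symbols or none gave no gene name. The number of arrays limits the precision.

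Models were fitted with limma 3.58.1 (eBayes; R 4.3.3), p-values were adjusted by Benjamini-Hochberg over all 27225 probe sets with a threshold of 0.05, and the procedures were tested on simulated data. The first model held the 4 control arrays with line as a block (1 residual degree of freedom). The arrays of a pair come from the same cell line, per the labels. Single lines and their difference were tested on 10 arrays with 3 passage terms, and control lines against clones with 2. An SE given for a single line comes from the spread of the 3 clones, moderated by eBayes towards the spread over all probe sets. Alternatives were other normalizations, filters, a pseudocount of 16, an intensity trend, other folds and left-out arrays, lines or clones.

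The rule for named genes took probe sets with 1 symbol and a mean log2 intensity of at least 6 over the 4 control arrays: up to 10 genes in each direction with the same sign in both lines (none passed the test, so by the smaller change of the lines), up to 8 in each direction for each line alone, up to 5 in each orientation that moved in opposite directions, up to 4 per gene list by mean change, up to 5 in each direction between control lines and clones, and the cell type markers. The intensity limit was not applied to list members and markers, so Ifit3, Orc1 and Fosb were named below it. Where several probe sets of a gene qualified, the one with the smallest p was taken, and for lists the one with the highest mean. Other list members given above, among them Ddit3, Grem1, Inhbb, Mt2A and Fgf7, and Klhl41, Vgf and the second probe sets, were chosen after their values were seen. The comparison and the 21 gene lists and 6 marker lists were chosen with earlier results of these data known.

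Promoter sequences were the 250 bases before the start from the RefSeq table of GRCr8, matched by symbol and searched on both strands; the table does not hold every gene.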

Additional observations from a re-analysis of the deposited data

Results flagged for a closer look

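For 5 named genes the passage change was at least 2-fold in each control line and ran in opposite directions. The scrambled minus the untransfected change was -2.43 for Wnt4, -2.35 for Cd44, -2.23 for Ereg, 2.52 for Ccl2 and 2.33 for Ifi44, on the log2 scale. Each rests on 1 array per line and passage, and the test of the difference did not pass for any of the 5 (limma adjusted p = 0.0823 for each).

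For 3 genes with a mean log2 intensity of at least 6 the mean passage change of the control lines differed from that of the clones by the test of that difference. The control minus clone change was 2.27 for Gzmb (SE 0.12, limma adjusted p = 0.00859), -2.11 for Anxa3 (SE 0.12, limma adjusted p = 0.00859) and -1.60 for Nr4a1 (SE 0.13, limma adjusted p = 0.032). Vgf, below that intensity, passed too, at -1.83 (SE 0.13, limma adjusted p = 0.02). For Gzmb and Nr4a1 the change lay in the clones, since the control lines were at 0.08 and 0.03 for Gzmb and at 0.22 and 0.26 for Nr4a1. For Anxa3 it lay in the control lines. None of the 4 genes passed when any 1 of the 5 lines was left out.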

How the results depend on the processing

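Over both control lines the count was 0 with line as the replicate block and also 0 with no replicate block, with other normalizations, filters, a pseudocount or an intensity trend. It was 1, Anxa3, with all 10 arrays (limma adjusted p = 0.00608), and 0 to 1725 when each control array was left out of that fit; without a scrambled array the term is that of the untransfected line alone. The 1725 calls of the untransfected line were 1539 with quantile normalization, 1373 of them the same probe sets, and 0 to 0 when each clone was left out, which leaves 1 residual degree of freedom. Quantile normalization gave 3 calls in the scrambled line, Vsnl1 and 2 probe sets of Aspn. The 5 calls between control lines and clones were 0 to 0 when each line was left out. At 1.5-fold the counts were 308 in the same direction, 2246 in the untransfected line alone, 1216 in the scrambled line alone and 130 opposite, and at 3-fold 2, 48, 34 and 0. With the pseudocount of 16, 16 had the same direction and 3 were opposite. The mean of the 2 lines' medians for immediate early genes moved from -0.10 to -0.063 with quantile normalization. Among the list medians of single lines, those near 0 changed sign. The interferon median of the untransfected line went from -0.06 to 0.0068 with the most variable probe set per gene and to 0.0078 with quantile normalization. The fatty acid median of the scrambled line went from 0.05 to -0.052 and its senescence median from -0.02 to 0.0054 with the most variable probe set, and the quiescent stellate cell median of the untransfected line from 0.02 to -0.00081 with quantile normalization. The mean of both lines' medians kept its sign for all 21 lists under both. Within a line, 1 array per passage allows no replicate check of its own.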
